A study of Mus musculus with 6 samples.

Results

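The cytosolic ribosomal protein genes of the mouse were examined for 2 marks of histone H3 at lysine 9, crotonylation (H3K9cr) and acetylation (H3K9ac). The genes were taken by symbol from the protein-coding genes of GRCm38: Rpl or Rps followed by a digit, Rplp0 to Rplp2, and Rpsa, without the Rps6k kinases. This gave 91 of 21883 protein-coding genes. They comprise 43 genes of large subunit proteins, 3 of the P stalk, 31 of small subunit proteins, 10 paralogues whose symbols end in l, l and a digit, or rt, and 4 further genes that match by symbol. The symbol rule leaves out ribosomal protein genes with other names, of which Fau and Rack1 are given below as references. A gene was called occupied in a library when a peak overlapped its record, extended by 2.5 kb on either side, by at least 1 bp.

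The cells were P19, an embryonal carcinoma line of the mouse, grown undifferentiated in MEM alpha with fetal bovine serum. No other genotype, agent or time is given. Chromatin was precipitated without crosslinking, with 1 antibody for H3K9cr and 1 for H3K9ac, both from PTM Biolab, in 2 biological replicates each; 2 inputs complete the 6 samples and were not analysed here. Because each mark has a single antibody, a property of the antibody and a property of the mark cannot be told apart. The cells were measured in bulk, so fewer marked cells and less mark per cell cannot be told apart either. Values for 4 libraries are always given in the order H3K9cr replicate 1, H3K9cr replicate 2, H3K9ac replicate 1 and H3K9ac replicate 2.

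A cytosolic ribosome is built from ribosomal RNA and one copy of most ribosomal proteins, so cells make these proteins in step and in large amounts. Growing and dividing cells devote much of their transcription to these genes, which are short, carry promoters rich in CG dinucleotides and often host small nucleolar RNAs (snoRNAs) in their introns. Their mRNAs begin with a terminal oligopyrimidine (TOP) tract through which mTOR signalling controls translation. H3K9ac and H3K9cr are acyl marks of the H3 tail that are typical of active promoters.

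The lists held 28360 and 28345 peaks for H3K9cr and 26096 and 27474 for H3K9ac, covering 36.4 to 42.1 Mb. Sequencing depth is not given in the sources used here, and a gene without a peak has no signal past the authors' threshold, which is not a measured absence. Of the markers of undifferentiated embryonal carcinoma cells, Pou5f1, Sox2, Utf1, Lin28a and Nanog had peaks in all 4 libraries. Nanog had the weakest (fold enrichment 7.57 to 15.2). Its lowest value, in H3K9ac replicate 2, came from a summit 8714 bp from the 5′ end of a 7145 bp record, beyond the 3′ end. The strongest summits at Lin28a also lay beyond the 3′ end, 18483 to 18651 bp from the 5′ end of a 15867 bp record. Peaks covered 20.3% to 26.2% of the Nanog record and 27.0% to 39.3% of the Lin28a record. Alb, Hbb-bt, Krt14 and Ptprc, markers of other cell types, had none, the heart gene Myh6 had 1 weak peak in 1 library, and the T cell gene Cd3e had a weak peak in each (11.6 to 17.0).

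The promoter sequences show what the members' start regions look like. RefSeq's table of promoters (GRCm38.p6) held 82 windows of 300 bases for 70 of the 91 genes. The stretches below run from 80 bases before to 25 bases from the listed start, 5′ to 3′ on the gene's strand. Capitals mark CCGGAA, the core letters of ETS family sites, or AAGATGG, letters found in sites of the factor YY1, on either strand. Rpl19, Rpl26 and Rpl27a are shown as 3 of the most strongly marked members, Rpl38 as one of those with the largest difference in width between the marks, Rpl35a as a carrier of AAGATGG, and Rpl39l and Rpl10l because neither had a peak in any library. Rpl19 has 2 listed starts, of which the first is shown, and Rpl35a has 3, of which the middle one is shown.
Rpl19 (chr11:98026630-98026734, plus strand): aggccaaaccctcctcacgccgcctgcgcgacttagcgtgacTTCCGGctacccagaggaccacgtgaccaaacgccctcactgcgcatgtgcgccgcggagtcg
Rpl26 (chr11:68901486-68901590, plus strand): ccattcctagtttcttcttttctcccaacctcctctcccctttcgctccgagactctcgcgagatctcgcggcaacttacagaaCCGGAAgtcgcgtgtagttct
Rpl27a (chr7:109519115-109519219, plus strand): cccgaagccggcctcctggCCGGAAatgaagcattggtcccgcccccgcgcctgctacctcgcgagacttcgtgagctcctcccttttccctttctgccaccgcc
Rpl38 (chr11:114668500-114668604, plus strand): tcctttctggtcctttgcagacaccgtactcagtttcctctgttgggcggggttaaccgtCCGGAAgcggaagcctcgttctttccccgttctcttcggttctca
Rpl35a (chr16:33056402-33056506, plus strand): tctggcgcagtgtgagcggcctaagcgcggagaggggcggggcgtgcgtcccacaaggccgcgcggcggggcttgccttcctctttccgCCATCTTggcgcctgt
Rpl39l (chr16:10170148-10170252, plus strand): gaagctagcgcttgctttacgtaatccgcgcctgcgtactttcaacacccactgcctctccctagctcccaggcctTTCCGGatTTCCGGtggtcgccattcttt
Rpl10l (chr12:66284377-66284481, minus strand): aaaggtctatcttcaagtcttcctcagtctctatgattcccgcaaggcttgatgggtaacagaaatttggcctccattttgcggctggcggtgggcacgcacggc

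Over the full 300 bases, CCGGAA on either strand was found in 37 of the 82 members' windows (45.1%), against 18.7% of 21262 windows of all protein-coding genes and 24.0% of those whose gene was occupied in all 4 libraries. AAGATGG on either strand was found in 12 windows (14.6%), against 6.24% of all and 6.44% of occupied genes. The overlapping windows of Rpl35a are all among them, so the same site was counted more than once there. GGGCGG, the core of SP1 sites, was in 57.3% of the members' windows, against 46.2% of all and 61.0% of occupied genes. CACGTG, the E-box of MYC and related factors, was in 9.76%, against 7.84% of all and 9.53% of occupied genes. TATAA on the given strand was in 22.0% of the members' windows, against 16.0% of all and 9.59% of occupied genes. The letters above show the motif also at a gene without any peak, since Rpl39l holds it 2 times on the reverse strand. Members with CCGGAA had a median strength percentile of 93.3 (34 of 36 genes occupied) and members without it of 89.5 (30 of 34), a description only. Each motif was counted on its own, matches of different motifs may overlap, and a match is not a shown binding site.

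A pyrimidine run of at least 4 bases, counted from the listed start onward, was present in 20 of the 82 windows (24.4%), against 5.75% of all and 5.97% of occupied genes. The longest such runs were those of Rpl27a (16 bases) and Rpl15 (13 bases). A run of at least 8 pyrimidines lay within 50 bases of the start in 75.6% of the members' windows, against 35.4% of all and 32.7% of occupied genes, a length chosen after the values were seen. Members' windows held a median of 21 CG dinucleotides, those of all genes 13, those of occupied genes 19, and those of the 6 unoccupied members with an entry 10.5.

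All 77 genes of standard subunit proteins carried both marks. Of the 91 members, 84 (92.3%) had a peak in all 4 libraries, against 67.9% of all protein-coding genes, and the other 7 had a peak in none. All 43 large subunit genes, all 3 P stalk genes and all 31 small subunit genes were among the 84, with 5 of the 10 paralogues and 2 of the 4 further symbol matches. The 7 genes without a peak are the paralogues Rpl10l, Rpl32l, Rpl39l, Rpl37rt and Rps27rt and the further matches Rpl34-ps1 and Rpl31-ps12. No member had one mark without the other. Of all 21883 protein-coding genes, 14862 were likewise occupied in all 4 libraries and 6463 in none, so few had a peak in some libraries only.

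The strength of a gene was read from the fold enrichment of its strongest peak, the authors' ratio of coverage at the summit to local background. Median fold enrichments over the 84 genes were 132, 143, 111 and 166, against 57.5, 56.5, 45.8 and 63.9 over the 14862 genes occupied in all 4 libraries. Because such ratios are comparable only within a list, each gene was given its percentile among these 14862 genes, library by library. Below, a set of 4 values for a gene is its fold enrichments unless percentiles are named. The members' median percentile was 93.1, 94.1, 93.3 and 94.7 in the 4 libraries, and 93.2 for the mean over libraries, where all genes have 50.8. A mean percentile above 90 was reached by 52 of the 84 members, against 8.46% of all genes tested. Rpl3l and Rps19bp1 were the 2 members below the 50th percentile. Ranked by coverage at the summit in place of the ratio, the members' median percentile was 92.5.

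**Figure D1:**
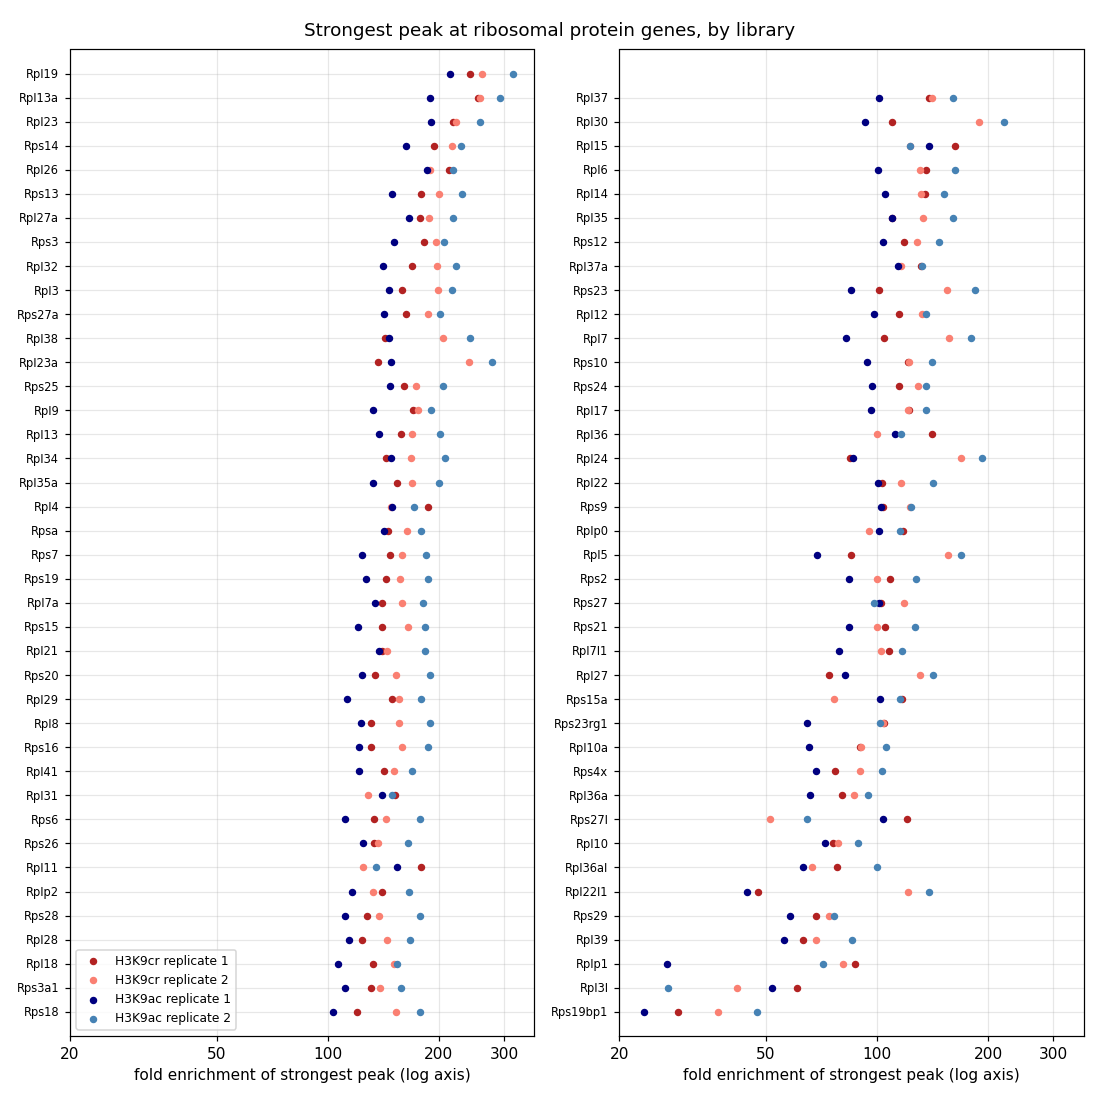
Fold enrichment (log axis, a ratio without unit) of the strongest peak at 79 of the 84 occupied genes, in 2 columns ordered by mean percentile; each point is 1 of the 4 libraries. Values run from 318 for Rpl19 in H3K9ac replicate 2 down to 23.4 for Rps19bp1 in H3K9ac replicate 1. Ratios of different libraries are on different scales, and the H3K9ac points at Rpl13a come from summits beyond its 3′ end. Points at Rpl17, Rpl24 and Rpl3l also include peaks that missed the gene's own record.

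Among all peaks, those of ribosomal protein genes were frequent near the top of each list. Their windows held 119, 114, 116 and 114 peaks, or 0.402% to 0.445% of a list. Of the 1% strongest peaks (260 to 283 per library), 18, 17, 24 and 19 lay in these windows, or 6.01% to 9.23%. Of the 10 strongest, 1, 2, 0 and 3 did. A tie in fold enrichment at rank 10 in H3K9ac replicate 1 was settled by position, which left out the peak of Rpl19. 

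Within the large subunit, Rpl19 stood highest of all members. Its fold enrichments were 242, 262, 215 and 318, which had ranks 12, 4, 10 and 3 among all peaks of their lists. Rpl23, whose free protein can bind the p53 regulator Mdm2, had 218, 223, 190.2 and 258. All 4 values of both genes stood above the 99th percentile of their libraries. Rpl26, which binds p53 mRNA, followed with 213, 189, 186 and 218. Rpl27a, with the long pyrimidine tract printed above, had 178, 188, 166 and 219. Both were above the 98th percentile in every library. Rpl13a, whose protein also silences translation of inflammatory mRNAs, had 255 and 259 in the H3K9cr libraries, with summits 538 and 541 bp upstream of its 5′ end. In the H3K9ac libraries the strongest summits in its window lay 4668 and 4660 bp from that end of a record of 3183 bp, beyond the 3′ end, so their values are not given as its own.

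Further large subunit genes had mean percentiles above 95, among them Rpl32, Rpl3, Rpl38 and Rpl23a from 98.1 to 98.6, Rpl9, Rpl13, Rpl34, Rpl35a and Rpl4 from 97.1 to 97.7, and Rpl7a, Rpl21, Rpl29, Rpl8 and Rpl41 from 95.4 to 96.3. Rpl3 forms part of the peptidyl transferase region, and Rpl38 is known from the tail-short mouse for its part in translating Hox mRNAs. Another 11 genes lay between 90.5 and 94.4: Rpl31, Rpl11, Rpl28, Rpl18, Rpl37, Rpl30, Rpl15, Rpl6, Rpl14, Rpl35 and Rpl37a. Rpl12, Rpl7, Rpl17, Rpl36, Rpl24, Rpl22, Rpl5 and Rpl27 lay between 82.0 and 89.5. The values of Rpl17 and Rpl24 include a strongest peak that missed the gene's own record. Rpl5 and Rpl11, which travel with 5S ribosomal RNA and can hold Mdm2 in check, had mean percentiles of 84.0 and 94.1. Lowest of the autosomal large subunit genes was Rpl10a (74.5), at 90.1, 90.4, 65.5 and 106.

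The P stalk, which recruits elongation factors to the ribosome, had the lowest median of the 3 structural groups (84.8), over only 3 genes. Rplp2 reached 139.9, 133, 116 and 166 and the anchor of the stalk, Rplp0, 117, 94.99, 102 and 115. Rplp1 had 87.2, 80.7, 27.0 and 71.5 and the lowest mean percentile of all 77 standard genes (56.9). Its percentiles were 73.9, 69.2, 28.3 and 56.1, so that the marks did not overlap, and H3K9ac replicate 1 stood apart from the other 3 libraries.

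Near the top of the small subunit genes stood Rps14 and Rps13. Rps14, the gene linked to the anaemia of the human 5q- syndrome, had 194, 217, 162 and 230.1, and Rps13 had 178, 199.6, 149 and 230.2. Another 9 had mean percentiles between 95.5 and 98.8: Rps3, Rps27a, Rps25, Rpsa, Rps7, Rps19, Rps15, Rps20 and Rps16. Rps27a encodes a fusion of ubiquitin and a ribosomal protein (163, 187, 142 and 202), and Rps19 is the gene most often mutated in Diamond-Blackfan anaemia (144, 157, 127 and 187). In both, H3K9ac replicate 1 had the lowest ratio and H3K9ac replicate 2 the highest, as in the medians over all genes.

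Rps6, Rps26, Rps28, Rps3a1, Rps18 and Rps12 lay between 90.7 and 94.3. Rps6, the substrate of the S6 kinases, had 134, 143, 111 and 177. Rps23, Rps10, Rps24, Rps9, Rps2, Rps27, Rps21 and Rps15a lay between 81.8 and 89.5. Rps15a had 117, 76.4, 102 and 115 and was the lowest of these, with percentiles of 88.8, 66.3, 90.3 and 82.0, of which H3K9cr replicate 2 was the lowest. Rps29, a zinc-binding protein of the subunit's head, was the lowest small subunit gene (68.2, 73.9, 57.9 and 76.3, mean percentile 61.6).

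The 4 X-linked standard genes all stood in the lower part of the order. Rps4x had 76.7, 89.8, 68.2 and 103, Rpl36a 80.1, 86.6, 65.6 and 94.5 and Rpl10, whose protein joins the large subunit late in its assembly, 75.9, 78.4, 72.1 and 88.6. Rpl39, a small protein of the exit tunnel, had 63.0, 68.4, 55.8 and 85.4. Their mean percentiles ran from 60.5 to 72.4 (median 69.9), while the 73 autosomal genes ran from 56.9 to 99.9 (median 94.1). Of the autosomal standard genes, Rps29 lay within the X-linked range and Rplp1 below it, and the next above it was Rpl10a (74.5). X-linked genes in general also stood lower, with a median percentile of 32.0 over 490 occupied genes against 51.6 for autosomal genes.

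**Figure D2:**
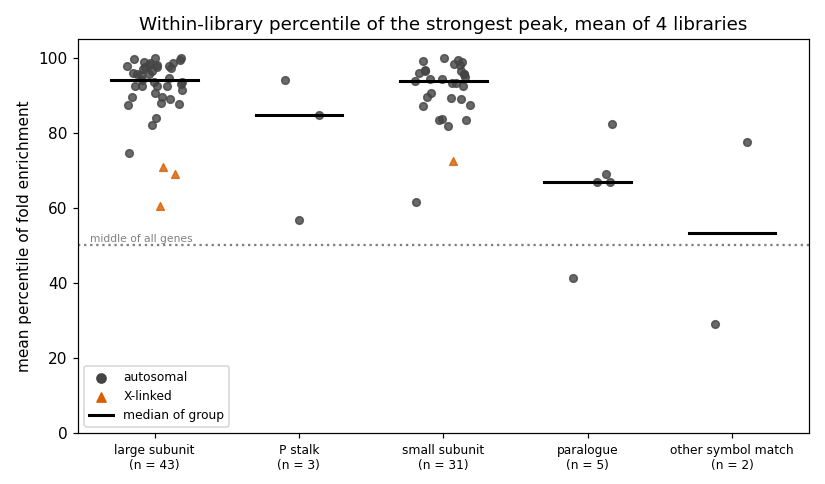
Mean over 4 libraries of the within-library percentile of the strongest peak (vertical axis, 0 to 100) by group; each point is a gene, triangles are X-linked, bars are group medians and the dotted line is the 50th percentile. Large and small subunit genes crowd above 80, the 4 X-linked genes lie between 60.5 and 72.4, and the paralogues between 41.4 and 82.3.

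Of the 10 paralogues, 5 had peaks in all 4 libraries. Rpl7l1, a relative of Rpl7, was the strongest by mean percentile, with 108, 103, 78.8 and 117. Rpl36al, an autosomal relative of the X-linked Rpl36a, had 78.0, 66.8, 62.9 and 99.8. Its peak also covered the neighbouring gene Mgat2. Rpl22l1, which can take the place of Rpl22, had 47.4, 121, 44.4 and 138, and Rps27l, a p53 target related to Rps27, had 120.2, 51.2, 104 and 64.6. At these genes the replicates of a mark differed more than the marks, as described further below. Rpl3l, a striated muscle form of Rpl3, had 60.7, 41.8, 51.9 and 27.1. Its summits lay 8944 to 8975 bp from the 5′ end of a record of 8318 bp, beyond the 3′ end, under a peak that covered Msrb1 in all libraries, and 1.32% to 3.51% of the Rpl3l record itself was covered.

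The other 5 paralogues had no peak in any library: Rpl10l and Rpl39l, which are known from the testis, Rpl32l, Rpl37rt and Rps27rt. Their parents Rpl10, Rpl39, Rpl32, Rpl37 and Rps27 had peaks in all 4, at mean percentiles of 69.1, 60.5, 98.6, 93.0 and 83.4. The sequences below show the copy with the longest stretch shared with its parent's start. Rps27rt and Rps27 share a run of 38 bases that begins at the listed start of Rps27rt and 1 base after that of Rps27. Below, capitals mark the part of the run within the window.
Rps27rt (chr9:114982715-114982819, minus strand): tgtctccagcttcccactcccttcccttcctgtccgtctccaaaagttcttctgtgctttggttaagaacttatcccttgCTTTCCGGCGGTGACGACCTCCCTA
Rps27 (chr3:90213624-90213728, minus strand): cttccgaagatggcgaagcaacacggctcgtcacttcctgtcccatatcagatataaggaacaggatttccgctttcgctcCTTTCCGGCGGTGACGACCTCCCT
Upstream of the run the printed letters differ. Where a copy and its parent both had a promoter entry, the other copies shared at most 12 bases in a row with their parents' windows, at Rpl31-ps12. Reads from near-identical copies can be placed at either copy, and how the authors treated such reads is not given in the sources used here.

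Of the 4 further matches, Rps19bp1 encodes a protein that binds RPS19 and Rps23rg1 derives from Rps23 by retroposition. Rps19bp1 had 28.9, 37.0, 23.4 and 47.3, the lowest mean percentile of all occupied members (28.9). Rps23rg1 had 104, 104, 64.5 and 102, against 101, 155, 84.9 and 184 for Rps23. Rpl34-ps1 and Rpl31-ps12 had no peak, while Rpl34 (97.4) and Rpl31 (94.4) stood high.

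Related genes gave a scale for these levels. Fau and Rack1, ribosomal proteins with other symbols, had mean percentiles of 98.3 and 98.8. Gapdh, a glycolytic enzyme, had 99.3 and cytoplasmic actin Actb 92.1, while the pluripotency factor Pou5f1 had 63.1. All 16 other TOP mRNAs on the list (such as Eif4b, Naca and Eef2) were occupied, with a median percentile of 90.1 and 9 of 16 above 90. All 40 ribosome biogenesis genes were occupied, at a median of 79.7. They spanned 44.5 for the helicase Ddx10 to 99.9 for Nhp2, a snoRNA-binding protein. The 78 mitochondrial ribosomal protein genes were all occupied as well, at 70.1, and 38 of 40 proteasome genes at 83.2. These medians are descriptions, as the lists were chosen with results known.

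The marks lay over the beginnings of the members, displaced into the gene. The strongest summit was within 1 kb of the 5′ end of the record in all 4 libraries at 72 of the 84 genes, against 67.0% of all genes tested. For genes without a strand in the tables, which include 20 of the 84, the nearer end was used. The 84 records are also short, with a median of 3206.5 bp against 24111 bp for all genes tested. How much of the difference follows from length was not tested. A second measure used the nearest listed transcript start for the 64 of the 84 that have one, and kept the nearer record end for the others. By it 78 of 84 were within 1 kb, against 74.3% of all genes tested, treated likewise. The other 6 by that measure include Rpl13a, Rpl24 and Rpl3l, and Rpl29 and Rpl17, which have no listed start. Rpl19, Rpl38, Rpl18, Rpl22, Rps2 and Rps27l were within 1 kb only of a start listed inside the record. At Rpl19 the summits were 5250 to 5272 bp inside the record but 329 to 351 bp downstream of the nearest listed start.

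The members' summits lay further into the gene than those of genes in general, as a description. For 61 members with a listed start and all summits within 1 kb of it, the mean position had a median of 437.5 bp downstream and quartiles of 312.5 and 489.5 bp. Over 9015 genes chosen likewise the median was 267.25 bp, with quartiles of 55.4 and 358.25 bp. Between 400 and 500 bp lay 26 of the 61 members (42.6%) against 7.44% of all. Mitochondrial ribosomal protein genes had a median of 305 bp (n = 61), proteasome genes 323.75 bp (n = 31) and other TOP mRNAs 322 bp (n = 10). Library medians for the members were 437, 435, 455 and 444.5 bp, against 268 to 287 bp for all genes.

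**Figure D3:**
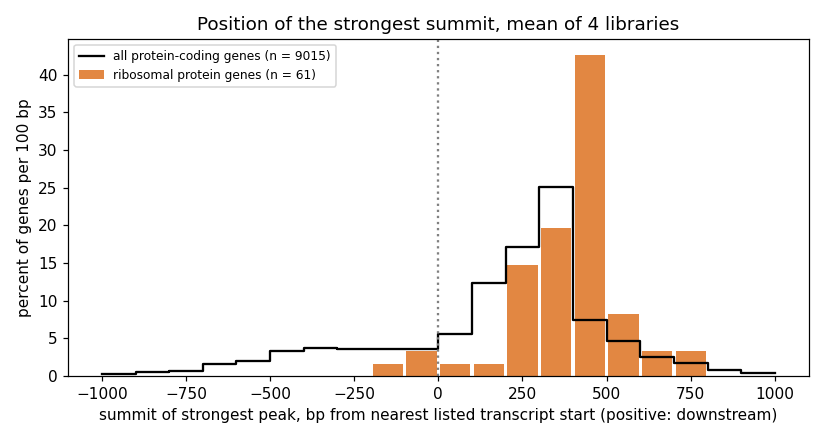
Position of the strongest summit relative to the nearest listed transcript start (horizontal axis, bp, positive downstream; mean of 4 libraries) as percent of genes per 100 bp; filled bars are 61 ribosomal protein genes and the line is 9015 protein-coding genes. The members' highest bar is at 400 to 500 bp (42.6%), where all genes have 7.44%.

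Single genes show how reproducible the positions were. At Rpl26 the summits lay 470, 466, 464 and 471 bp downstream of the listed start, at Rpl23 498, 509, 475 and 508 bp, and at Rpl37 484, 491, 492 and 491 bp. The summits of the 4 libraries fell within 100 bp of each other at 68 of the 84 genes (81.0%, against 57.7% of all genes tested) and within 50 bp at 62 (73.8% against 47.1%). They were more than 500 bp apart at 8 (9.52% against 16.5%), among them Rpl13a, Rpl17, Rpl24, Rpl28, Rplp1, Rps12 and Rps2. Rps12 was divided by mark, with H3K9cr summits 385 and 411 bp upstream of the 5′ end of the record and H3K9ac summits 432 and 416 bp downstream, within peaks of 3225 to 4054 bp that spanned both positions. At Rpl28 the summit of H3K9cr replicate 1 alone was upstream, by 360 bp. At Rps2, H3K9ac replicate 1 alone differed. 

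The members are short, and the marks covered much of each. The median record was 3175 bp long, against 17170 bp for all protein-coding genes. The median share of a record under peaks was 57.6%, 59.6%, 53.1% and 55.6% in the 4 libraries, against 5.93%, 6.03%, 5.41% and 5.80% over all genes tested. Rpl41, Rpl12, Rps21 and Rps27 were covered over their whole length in every library. At the other end, Rpl5 (8498 bp) was covered over 21.4% to 25.6% of its record and Rps3 (5814 bp) over 23.2% to 29.3%. In 54 to 58 of the 84 genes (64.3% to 69.0%) a single peak made up the signal, against 59.4% to 60.8% of all genes tested.

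The width of the marked region was compared between H3K9cr and H3K9ac as the base pairs under peaks within the window, centred on each library's median. Before centring, medians over members were 2962, 3085.5, 2802 and 2830.5 bp in the 4 libraries, against 2380.5, 2428.5, 2196 and 2342 bp for all genes tested. Of 14862 genes, 0% passed limma's test with Benjamini-Hochberg adjustment at 0.05, and the count of members was 0. The smallest adjusted p among members in limma's test was 0.295. At an unadjusted p under 0.05 in limma, 10 of 84 members were found, all wider for H3K9cr, against 6.92% of all genes, of which 5.83% were wider for H3K9cr and 1.09% for H3K9ac. That count fell to 5 members with a flank of 1 kb (1015 of 14659 genes) and to 2 within the gene records alone (992 of 14513 genes). Without H3K9ac replicate 1, 56 members had a positive centred difference (wider for H3K9cr) and 28 a negative one. The median was then 52.25 bp over members, against -11 bp over all genes tested.

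Rps4x had the largest difference, with 3842, 3768, 1874 and 2890 bp under peaks. Both H3K9cr libraries were above both H3K9ac libraries, which were themselves far apart. The centred difference was 1287.5 bp (SE 312, limma adjusted p = 0.482). Without H3K9ac replicate 1 it was 849.5 bp and without H3K9ac replicate 2 it was 1721.5 bp.

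Rps15a had 5046, 5393, 4007 and 4371 bp, and Rpl38 5932, 6176, 5191 and 5075 bp. Their differences were 895 bp (SE 157) and 785.5 bp (SE 146), each with a limma adjusted p of 0.360. Rpl10a had 4183, 4258, 3308 and 3321 bp, the closest replicates of the 5 genes with the largest differences. It differed by 770.5 bp (SE 106, limma adjusted p = 0.295). With a flank of 1 kb the difference at Rpl10a was 109 bp, and within the gene record alone 126 bp. Rps24 had 2562, 3478, 2084 and 2384 bp and differed by 650.5 bp, but its H3K9cr replicates were further apart than that and its unadjusted p was above 0.05. Beside the other 4, the 10 genes are Rps12, Rpl32, Rpsa, Rpl17, Rpl4 and Rpl35, with differences of 300.5 to 620.5 bp. None of these differences passed the adjusted threshold.

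In the other direction differences were smaller. Rpl28 had 2119, 2262, 2148 and 2522 bp (centred difference -280 bp, SE 127, limma adjusted p = 0.81), with the marks overlapping before centring. Rpl27, Rps6 and Rpl27a also had negative values, with centred differences of -248, -222 and -178 bp. These values depended on single libraries. Without H3K9ac replicate 1 they were -397 bp at Rpl28, -402.5 bp at Rpl27, -93.5 bp at Rps6 and -361 bp at Rpl27a. Without H3K9ac replicate 2 they were -167, -97.5, -354.5 and 1 bp in the same order, so that the direction turned at Rpl27a. Over all members 52 differences were positive (wider for H3K9cr) and 32 negative, with a median of 30.25 bp, against -16 bp over all genes tested. Without centring the split was 78 to 6 and the medians 165.75 bp for members and 119.5 bp for all genes. After centring, both H3K9cr libraries were above both H3K9ac libraries at 19 of 84 members (16.8% of all genes tested) and below at 10 (22.3%).

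**Figure D4:**
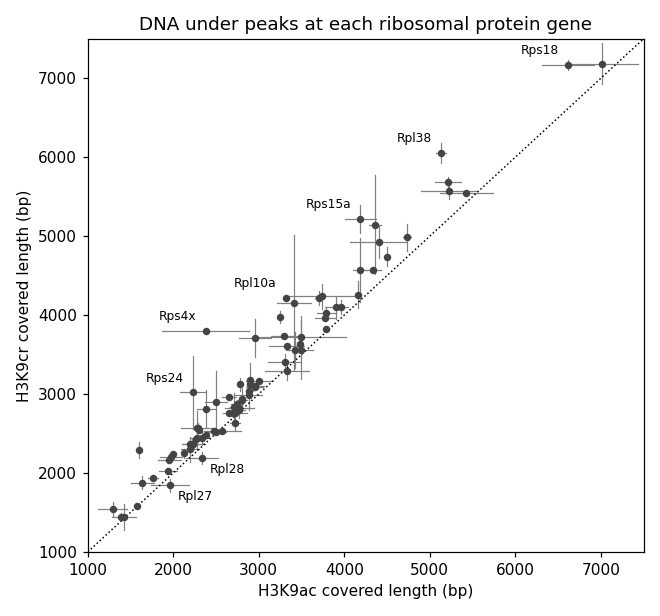
Base pairs under peaks within 2.5 kb of each of the 84 occupied genes, uncentred; H3K9ac on the horizontal and H3K9cr on the vertical axis, points are means of 2 replicates, bars span the replicates and the dotted line is equality. Rps4x, Rps15a, Rpl38 and Rpl10a lie furthest above the line, with long replicate bars at Rps4x, and Rpl27 and Rpl28 lie below it.

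No difference between the marks in ranked strength passed the test. In limma's test on normal scores of the ranks, 0 members and 0% of all genes passed the adjusted threshold, and at an unadjusted p under 0.05 there were 0 members against 0.807% of all genes (120 genes). The smallest adjusted p of a member in limma was 1.0. The unadjusted count depended on the form of the fit. With the replicate number added to the limma fit it was 6 members, 3 of them higher for H3K9cr, and 951 of 14862 genes. With genes ranked by pileup it was 6 members, 2 of them higher for H3K9cr, and 1253 genes. Rplp1 had the largest difference toward H3K9cr (0.78 score units, SE 0.29), with the percentiles given above. It was 0.41 without H3K9ac replicate 1, 1.14 without H3K9ac replicate 2 and 0.07 when genes were ranked by pileup. Rps23rg1 also had a positive difference (0.36). Toward H3K9ac, Rpl23a (-0.36, SE 0.61), Rpl34 (-0.36), Rpl21 (-0.34), Rpl38 (-0.30) and Rps15a (-0.29) had the lowest differences. The direction turned at Rpl23a (0.36) and Rpl38 (0.12) without H3K9cr replicate 1, at Rpl23a (0.09) without H3K9ac replicate 2 and at Rps15a (0.11) without H3K9cr replicate 2. Rpl23a had percentiles of 94.0, 99.9, 98.6 and 99.9, of which H3K9cr replicate 1 was the lowest. Over all members 30 score differences were positive (higher for H3K9cr) and 54 negative, with a median of -0.057. Over all genes tested 7291 were positive and 7571 negative, with a median of -0.003. Without H3K9cr replicate 1 the members' split was 45 positive to 39 negative. Percentiles of both H3K9cr libraries were above both H3K9ac libraries at 9 members (11.9% of all genes) and below at 14 (11.2%).

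A few members differed between replicates in the same direction for both marks. Rpl22l1 had percentiles of 40.8, 89.0, 48.3 and 89.5, low in replicate 1 of both marks. Rps27l had 89.7, 45.1, 91.1 and 50.5, low in replicate 2 of both. Rpl5 had 72.4, 96.1, 72.2 and 95.1. A percentile at least 20 points higher in replicate 2 for both marks was found at Rpl5 and Rpl22l1 (2 of 84, 3.65% of all genes tested), and one higher in replicate 1 at Rps27l (1 of 84, 4.31%). Replicate shifts of H3K9cr and H3K9ac had a Pearson r of 0.774 over the 84 members and 0.756 over all 14862 genes, as a description across genes. Genes in a library share its sequencing and its background.

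**Figure D5:**
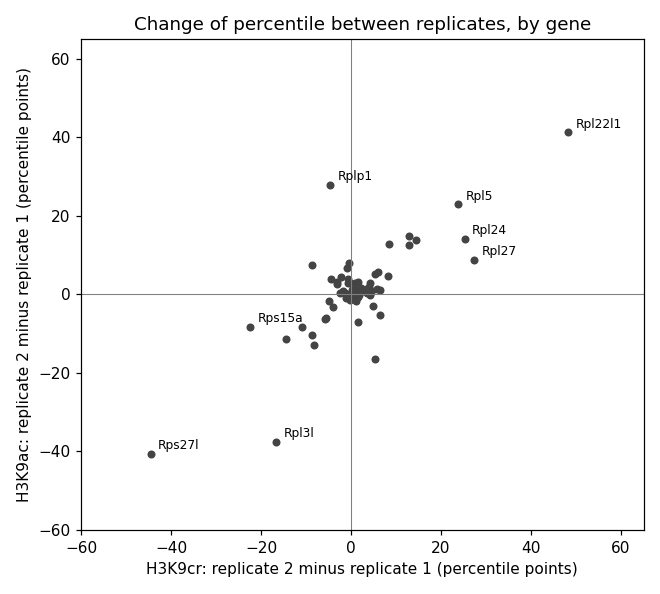
Change of percentile from replicate 1 to replicate 2 (percentile points) for H3K9cr on the horizontal and H3K9ac on the vertical axis; each point is 1 of 84 genes. Rpl22l1 and Rpl5 lie far to the upper right, Rps27l to the lower left, and most genes lie near 0 for both marks.

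The values that make up the ratio moved differently at these genes. Coverage at the summit of Rpl22l1 was 378, 367, 235 and 412 and at Rps27l 348, 357, 267 and 451, while the members' medians were 402, 463, 301 and 530. The local background implied by coverage and ratio was 7.0, 2.0, 4.3 and 2.0 at Rpl22l1 and 1.9, 6.0, 1.6 and 6.0 at Rps27l, high where the percentile was low. At Rpl5 it was 4.0, 2.0, 3.5 and 2.0, and at Rplp1 1.9, 2.6, 6.0 and 3.0, highest in the library with the low ratio. The most frequent background of a library was 1.9, 2.0, 1.6 and 2.0 (to 1 decimal), and 52, 61, 51 and 61 of the 84 members had it (61.9%, 72.6%, 60.7% and 72.6%), against 42.0%, 53.0%, 44.2% and 54.5% of all genes tested. What the local background reflects was not tested.

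A peak is not always a member's alone. At 20 of the 84 (23.8%) the strongest peak also covered another protein-coding gene in all 4 libraries, against 23.7% of all genes tested. At 5 members (5.95%, against 10.4%), among them Rpl13a, Rpl17, Rpl24 and Rpl3l, the strongest peak in the window missed the member's own record in at least 1 library. Examples are Rpl9 with Lias, Rpl4 with Zwilch, Rpl7a with Med22, Rps18 with Vps52, Rps25 with Trappc4, Rpl15 with Nkiras1 and Rps27 with Rab13 and Nup210l. Rps18 and Vps52 lie under peaks of up to 7230 bp, the longest of the members' strongest peaks but for that at Rpl13a (7606 and 7628 bp in the replicates numbered 2). At such pairs the marks of the ribosomal protein gene and of its neighbour cannot be told apart.

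The annotation also places many snoRNA genes inside the members. A snoRNA gene lay inside the record of 30 of the 91 members (33.0%), against 1.70% of all protein-coding genes, 59 snoRNA genes in all. Rpl4 held 5, and Rpl13a and Rpl7a held 4 each. As a class, snoRNAs guide the modification and processing of ribosomal RNA.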

How the data were processed

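One peak list per precipitated library was deposited, made with Bowtie2 2.4.1 and MACS2 2.2.7.1 on GRCm38, per the submitters' processing notes. No source used here gives the settings. Each peak has, per the file headers, a start, end and length in bp, a summit, a pileup (coverage signal at the summit), a -log10 p-value and -log10 q-value, and a fold enrichment, the caller's ratio of pileup to local background. These per-peak values are the authors' own and served for ranks, filters and descriptions inside each list and for the implied background below. The smallest deposited -log10 q-value was 2.02 to 2.06, depending on the library. A gap in a list is therefore a stretch where no reported peak reached that limit, and the signal there is unknown. At near-identical copies a gap may also depend on how reads were placed, which is not given.

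Peaks were joined to gene records of RefSeq's GRCm38.p6 table, positions counted from 1, on chromosomes 1 to 19, X and Y. That table has no strand, so strands and starts came from the promoter table. The members and the gene lists were chosen with earlier results of these data known. For each gene and library the strongest peak, its summit, the base pairs under peaks and the within-library percentile of its fold enrichment were taken. Implied local background is the pileup plus 1, divided by the fold enrichment, minus 1. Covered length, centred on the library median, and normal scores of ranked fold enrichment were fitted by mark (2 libraries against 2) with limma 3.58.1 in R 4.3.3 over 14862 genes, with Benjamini-Hochberg adjustment and a threshold of 0.05. The p-values are for the difference between the marks, set against the spread between 2 biological replicates per mark. For that spread limma draws each gene's variance toward that of all genes tested. In the width fit the median standard error over members was 134 bp. Other steps used scipy 1.17.1, pandas 2.3.3 and numpy 2.4.6 under Python 3.11.15. The fits were also run on simulated data in which each library varied on its own. Equally numbered replicates here shared shifts in strength across the marks, so that run does not show how the fits behave on these data.

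Genes given with full values are those without a peak, all paralogues, the 8 standard genes with the highest and the 8 with the lowest mean percentile, and the 5 genes with the largest difference in each direction of each fit. Others are named with a value or range. A few genes are not reported here by name, and the counts and fits include them. Alternatives were other windows (1 kb or none), peaks with a -log10 q of at least 10, equal list lengths, an overlap of 200 bp, pileup in place of fold enrichment, no centring, coverage near the 5′ end alone, a summit distance of 500 bp, a replicate block and leaving out each library. Listed transcript starts and leaving out the 4 further symbol matches were added after the data were seen.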

Additional observations from a re-analysis of the deposited data

How the results depend on the processing

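The number of members occupied in all libraries was 84 under every alternative run, and 82 of 87 without the 4 further symbol matches. Their median percentile stayed between 92.5 (pileup) and 93.7 (gene record without flank), and between 92.9 and 93.5 when a library was left out. The number of members with the summit near the 5′ end was 72 to 73 under those alternatives, and fell to 46 when the distance was 500 bp in place of 1 kb. The share of all genes at 500 bp was not counted. In limma's tests 0 members passed for width or for ranked strength under any alternative run, including without each library. For width the smallest adjusted p of a member in limma ranged from 0.165 (without H3K9ac replicate 2) to 0.625 (within 2.5 kb of the 5′ end). The width differences of single genes moved with the region measured, the centring, the filter on peaks and the libraries left out. Over the alternatives they ranged from 336.5 to 1721.5 bp at Rps4x, 289.5 to 1041.5 bp at Rps15a, 89.5 to 1594.25 bp at Rpl38, 109 to 906 bp at Rpl10a and 215.5 to 1081.5 bp at Rps24, always wider for H3K9cr. For ranked strength by pileup the smallest adjusted p of a member in limma was 0.306, and 20 genes that are not members passed.

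With the replicate number as a block, limma called 0 members for width (smallest adjusted p = 0.311) and 0 for ranked strength (0.726), and 8 other genes for strength. No label says that equal numbers were prepared together. Deviations of equally numbered replicates of the 2 marks correlated across genes at 0.134 for width and 0.743 for ranked strength, as a description, since with 2 pairs and no label the samples share only a number.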
